A study of Mus musculus with 2 samples.

Results

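The genes that copy DNA and those that divide the cell were followed in satellite cells, the muscle stem cells, of uninjured and injured muscle. They comprised 49 of the 32285 genes counted: 25 genes of S phase, in which DNA is replicated, and 24 genes of G2 and mitosis (G2/M). The members were taken by symbol from a given list, and each was found exactly once in both libraries.

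The mice were 8 weeks old and carried Pax7 CreERT2/+ together with Rosa26 mTmG/+, so that Cre made in Pax7-expressing cells, once induced, turns on a green fluorescent protein by which the cells were sorted. The tissue was the tibialis anterior, a muscle of the lower leg. The QSC library was made from quiescent satellite cells of uninjured muscle. The ASC library was made from activated satellite cells 1.5 days after injection of cardiotoxin, which destroys muscle fibres. The genotype was shared by both groups. Each library was a pool of several mice and each group had 1 library, so that the condition and the library cannot be told apart, no test was possible, and every interval below covers counting error only.

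Quiescent satellite cells rest outside the cell cycle. After injury they enter it, divide as myoblasts that express Myod1, and then leave it for good when Myog, the transcription factor of terminal myogenic differentiation, is switched on. In late G1 the E2F transcription factors switch on the genes of DNA replication. Later the MuvB complex, bound to a promoter element called CHR, acts with B-Myb and FoxM1 on the genes of mitosis, often next to CCAAT boxes that bind NF-Y.

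Barcodes, each standing for 1 droplet, entered the analysis if 500 or more genes were seen and mitochondrial genes took no more than 10% of the UMIs (unique molecular identifiers, 1 per captured transcript). This left 516 QSC barcodes with 1162091 UMIs and 1468 ASC barcodes with 8895815 UMIs. The 2 libraries shared 4 barcode sequences as deposited, of which 2 were kept in both. Many ASC barcodes were dominated by RNA of muscle fibres: 956 took at least 5% of their UMIs from 10 contractile genes, against 104 in the QSC library. A further 89 ASC and 15 QSC barcodes took at least 1% of UMIs from 15 immune genes, and 4 and 27 at least 1% from 9 stromal and endothelial genes. The rest, 419 ASC and 370 QSC barcodes, are called contractile-low muscle barcodes here. They carried the satellite cell markers Pax7, Myf5 and Vcam1 in 31.9%, 55.4% and 55.4% of QSC barcodes and Myod1 in 68.3% of ASC barcodes. Other markers ranged widely in the QSC barcodes, with Sdc4 in 83.5%, Itga7 in 13.0% and Calcr in 6.49%. In the ASC barcodes Pax7 was in 23.9% and Myog in 50.1%. Myod1 was also in 34% of the ASC contractile barcodes. Immune transcripts were also found in the contractile-low barcodes. Of 8 immune markers, Lyz2, the lysozyme of myeloid cells, was the most frequent, in 5.41% of QSC and 40.6% of ASC barcodes, Tyrobp was in 2.70% and 25.1%, and Csf1r, the macrophage receptor gene, was the least frequent in the ASC barcodes, in 1.08% and 1.67%. Their part in the results was not tested. No member gene was used to set these classes. The ASC contractile-low barcodes were deeper (median 8278 UMIs) than those of the QSC library (2218 UMIs).

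The member transcripts of the ASC library lay almost wholly in the contractile-low barcodes. These held 91.9% of its S group UMIs and 92.9% of its G2/M UMIs. On the scale of CPM, UMIs per 1000000 UMIs of the class, the S group stood at 2163 (95% interval 2124 to 2203) in the contractile-low, 254 (236 to 272) in the contractile and 388 (336 to 445) in the immune barcodes. The G2/M group stood at 1332 (1301 to 1364), 116 (104 to 128) and 335 (287 to 389), in the same order. Free RNA in the droplets can add to every class, and its part was not tested.

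Between the libraries, the S group was higher after injury, and the G2/M group more so. In the contractile-low barcodes the S group went from 375 UMIs, 446 CPM (402 to 494), to 11365 UMIs, 2163 CPM, a log2 ratio of ASC over QSC of 2.28 (2.13 to 2.43). The G2/M group went from 65 UMIs, 77.3 CPM (59.7 to 98.6), to 6999 UMIs, 1332 CPM, a log2 ratio of 4.11 (3.76 to 4.48). The intervals of both ratios do not overlap. Over all kept barcodes the log2 ratios were 1.91 (1.77 to 2.05) and 3.68 (3.35 to 4.02). The median gene with at least 20 UMIs in each library lay at -0.27 in the contractile-low barcodes and at -0.24 over all kept barcodes.

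Gene by gene the shift was broad. In the contractile-low barcodes 22 of 25 S members and 23 of 24 G2/M members were at least 2-fold higher in the ASC library, against 16.5% of the 10003 genes with at least 20 UMIs. Over all kept barcodes the counts were 21 and 22, against 13.8% of 11189 genes. No member was at least 2-fold lower in either set. The median member had a log2 ratio of 2.79 in each group, with counts under 3 UMIs set to 3 for this median and for the 2-fold counts. At most 3 QSC UMIs were found for 18 of the 24 G2/M members and 8 of the 25 S members. The medians are therefore minimum values, most so for the G2/M group, and do not show that the groups shifted alike. A limit of 1% on mitochondrial UMIs left a lone QSC contractile-low barcode, which itself held many member UMIs, and there the log2 ratios turned to -0.30 for the S group and -0.73 for the G2/M group.

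**Figure D1:**
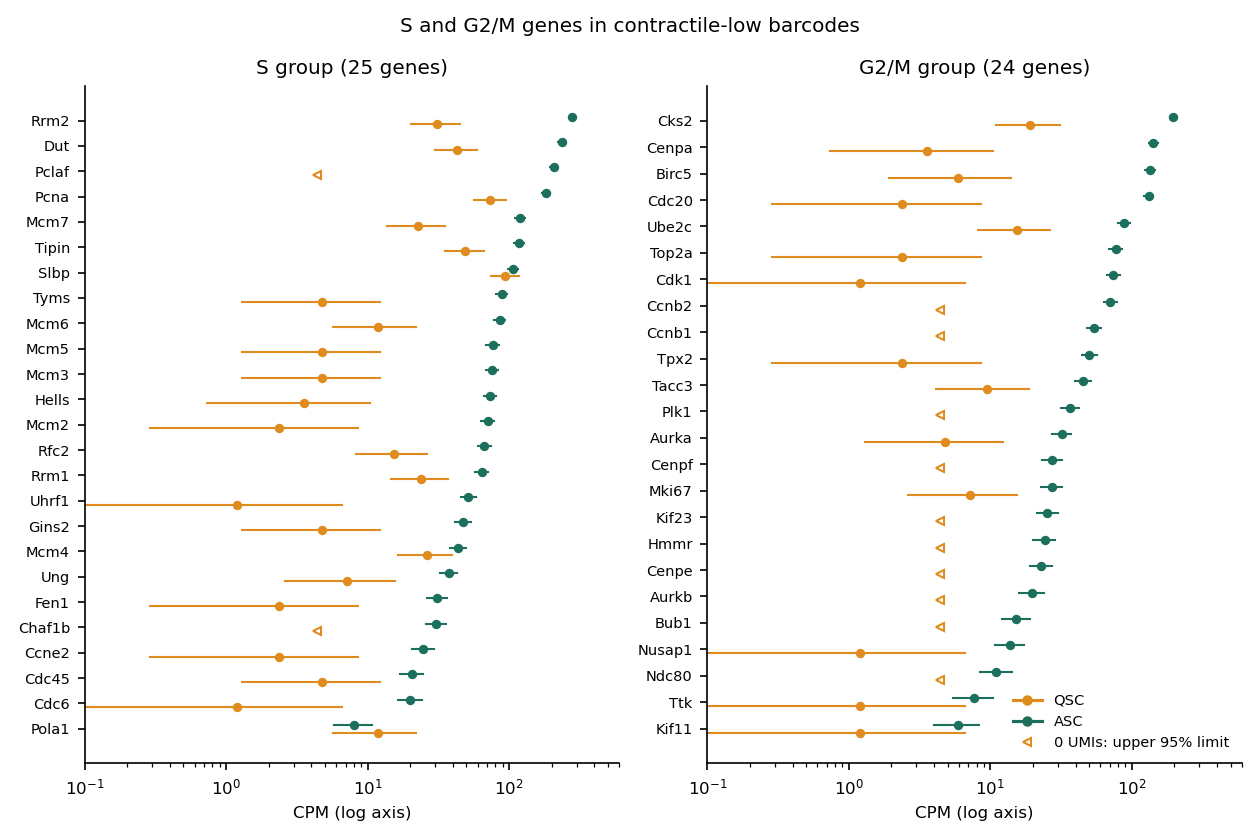
CPM (log axis) of the 25 S and 24 G2/M genes in the contractile-low barcodes of the QSC library (orange, 370 barcodes) and of the ASC library (green, 419 barcodes), with exact Poisson 95% intervals; open triangles give the upper limit for genes with 0 UMIs. Nearly all green points lie to the right of the orange ones, and Slbp, Pola1 and Kif11 are the members whose ratio interval spans 0.

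Among the S genes, the enzymes that supply nucleotides held many of the UMIs. Rrm2, the regulated subunit of ribonucleotide reductase, went from 26 UMIs (30.9 CPM) in the QSC to 1471 UMIs (280 CPM) in the ASC contractile-low barcodes, a log2 ratio of 3.18 (2.62 to 3.80). Dut, which removes dUTP, went from 42.8 to 235 CPM (2.46, 1.98 to 2.98). Tyms, which makes thymidylate, went from 4.76 to 88.7 CPM (4.22, 2.85 to 6.10). Rrm1, the large subunit of the reductase, went from 23.8 to 64.2 CPM (1.43, 0.78 to 2.16). Rrm1 thus already had a similar number of QSC UMIs (20) to Rrm2 and differed less.

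At the replication fork, Pcna, the sliding clamp of the polymerases, went from 73.8 to 182 CPM (1.31, 0.93 to 1.70). Pclaf, a protein that binds the clamp, had 0 QSC UMIs and 1082 ASC UMIs (206 CPM). With its QSC count set to 3 UMIs it was 57.7-fold higher, the highest such fold among the members at 0. The lower limit of its log2 ratio was 5.55. Of the 6 subunits of the MCM helicase, which unwinds DNA, 5 had log2 ratios from 2.40 (Mcm7) to 4.90 (Mcm2), whereas Mcm4 went from 26.2 to 43.6 CPM (0.74, 0.10 to 1.44). Uhrf1, which carries DNA methylation through replication, went from 1 to 270 UMIs, and the helicase Hells from 3 to 386 UMIs. Tipin, a fork protection factor, went from 48.8 to 117 CPM (1.26, 0.81 to 1.76).

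A pair of S genes stood apart. Slbp, whose protein binds the stem-loop of histone mRNAs, was already at 94.0 CPM (79 UMIs) in the QSC and at 107 CPM (562 UMIs) in the ASC contractile-low barcodes, a log2 ratio of 0.19 (-0.16 to 0.55). It was the S gene with the most QSC UMIs. Pola1, the catalytic subunit of the priming polymerase, had 10 and 42 UMIs (11.9 and 7.99 CPM) and a log2 ratio of -0.57 (-1.59 to 0.59), which excludes neither a lower nor a higher level. Chaf1b, a subunit of the histone chaperone CAF-1, was at 0 QSC UMIs and 160 ASC UMIs. With the QSC count set to 3 UMIs this is 8.53-fold higher, and the lower limit of the log2 ratio was 2.778. The other S members (Gins2, Cdc6, Cdc45, Fen1, Rfc2, Ung and Ccne2) had log2 ratios between 2.11 and 4.07.

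Of the 24 G2/M genes, 10 had no UMI in the QSC contractile-low barcodes. These were the B-type cyclins Ccnb1 and Ccnb2, the kinases Plk1, Aurkb and Bub1, the centromere and kinetochore genes Cenpe, Cenpf and Ndc80, the midzone motor Kif23 and the spindle gene Hmmr. Their ASC counts ran from 58 UMIs (Ndc80) to 370 UMIs (Ccnb2), and their folds, with the QSC counts set to 3 UMIs, from 3.09 to 19.7. For Ccnb1 (285 UMIs) this fold was 15.2 and for Plk1 (192 UMIs) 10.2. The lower limits of the log2 ratios ran from 1.285 (Ndc80) to 3.997 (Ccnb2).

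The G2/M members with the most UMIs were Cks2, a small subunit of the cyclin-dependent kinases, and Cenpa, the centromeric histone. Cks2 went from 16 UMIs (19.0 CPM) to 1034 UMIs (197 CPM), a log2 ratio of 3.37 (2.66 to 4.18). Cenpa went from 3 to 745 UMIs, 3.57 to 142 CPM (5.31, 3.76 to 7.59). Birc5, survivin of the chromosomal passenger complex, went from 5 to 706 UMIs (4.50, 3.27 to 6.13), and Cdc20, the activator of the anaphase-promoting complex, from 2 to 693 UMIs (5.79, 3.93 to 8.84). Ube2c, the ubiquitin-conjugating enzyme of that complex, had 13 and 463 UMIs (2.51, 1.72 to 3.43). Top2a, which untangles sister DNA, had 2 and 403 UMIs (5.01, 3.15 to 8.06), and Cdk1, the mitotic kinase itself, 1 and 389 UMIs (5.96, 3.47 to 11.3).

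Mki67, the gene of the proliferation antigen Ki-67, had 6 and 143 UMIs (1.93, 0.77 to 3.40). Kif11, the spindle motor Eg5, had 1 and 31 UMIs, and its interval (-0.27 to 7.66) reached below 0. The remaining members (Nusap1, Tpx2, Aurka, Tacc3 and Ttk) had intervals above 0 and log2 ratios from 2.25 to 4.40. UMIs come from transcript 3' ends, so counts of different genes were not scaled to gene length and are set side by side as counts. By position, 12 members overlapped another counted gene, 1 of them (Chaf1b) on its own strand, and 4 (Pcna, Tyms, Ccnb1 and Ccnb2) had an annotated pseudogene of the same name, so that a share of their reads may have been assigned less surely.

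In the QSC library a single barcode weighed on the sums. It held 17 of the 431 S UMIs and 14 of the 77 G2/M UMIs of all kept QSC barcodes, at a depth of 5070 UMIs. Without it the log2 ratios in the contractile-low barcodes were 2.34 and 4.45.

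Promoter sequences are shown because the S and G2/M groups differ in the DNA words they hold. RefSeq promoter windows (GRCm38.p6, 250 bases before to 50 after the start) were found for 42 members, 20 of the S group (23 windows) and 22 of the G2/M group (22 windows), and were searched on both strands. The E2F words TTCCCGC or TTTGGCGC were present in 12 of 23 S windows (52.2%), in 0 of 22 G2/M windows and in 5.06% of all 32851 windows. The CHR word TTTGAA was present in 15 of 22 G2/M windows (68.2%), in 3 of 23 S windows (13.0%) and in 17.9% of all windows. The word CCAAT was in 18 of 22 G2/M windows (81.8%), in 15 of 23 S windows (65.2%) and in 37.4% of all, and 14 G2/M windows (63.6%) held TTTGAA together with CCAAT, against 6.95% of all. The CHR variant TTCGAA was in 2 G2/M windows (9.09%), 1 S window (4.35%) and 1.56% of all. None of these words contains another. Counted from the start, TTTGAA in the G2/M windows began at a median position of -15 and CCAAT farther upstream, at -69.5. A match describes letters and not a bound factor, and an absent match says only that these letters are not in the window.

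The S promoters with the E2F words are represented by Pclaf and Mcm7, the S members with the most ASC UMIs that hold one in the stretch shown. Slbp and Pola1 are shown because their ratio interval spanned 0. Each stretch runs 5' to 3' from 200 bases before the RefSeq start to 30 bases after it, with every searched word or its reverse complement in capitals.
Pclaf, chr9:65890123-65890352, plus strand: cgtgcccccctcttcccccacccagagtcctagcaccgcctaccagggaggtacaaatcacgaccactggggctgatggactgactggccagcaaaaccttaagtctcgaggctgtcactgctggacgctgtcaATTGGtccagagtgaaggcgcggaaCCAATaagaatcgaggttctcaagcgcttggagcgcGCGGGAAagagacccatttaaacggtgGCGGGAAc
Mcm7, chr5:138171854-138172083, minus strand: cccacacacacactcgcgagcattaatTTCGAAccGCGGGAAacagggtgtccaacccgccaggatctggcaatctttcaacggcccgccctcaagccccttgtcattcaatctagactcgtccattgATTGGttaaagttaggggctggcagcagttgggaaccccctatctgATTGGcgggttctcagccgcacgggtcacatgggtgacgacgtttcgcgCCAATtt
Slbp, chr5:33652545-33652774, minus strand: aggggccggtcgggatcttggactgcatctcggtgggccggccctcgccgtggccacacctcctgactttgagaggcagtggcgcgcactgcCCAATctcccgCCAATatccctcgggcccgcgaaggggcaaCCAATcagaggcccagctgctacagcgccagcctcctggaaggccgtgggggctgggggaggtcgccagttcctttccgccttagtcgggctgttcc
Pola1, chrX:93632126-93632355, minus strand: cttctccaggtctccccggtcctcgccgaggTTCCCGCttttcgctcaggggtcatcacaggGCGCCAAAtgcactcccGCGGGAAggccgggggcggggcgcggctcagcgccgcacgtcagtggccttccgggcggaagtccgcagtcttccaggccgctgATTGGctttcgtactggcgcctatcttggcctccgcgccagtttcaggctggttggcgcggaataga

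Pclaf held 2 copies of TTCCCGC, read as GCGGGAA, both within a short distance of the start, beside 2 CCAAT boxes. Mcm7 held 1 copy near the upstream end, next to the palindrome TTCGAA, and 3 CCAAT boxes. Slbp had 3 CCAAT boxes and neither E2F word. Pola1, whose level did not separate the libraries, held 3 E2F words.

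For the G2/M group, Cenpa and Cdc20 are the members with the most ASC UMIs that hold TTTGAA in the stretch, and Kif11 is the member whose interval spanned 0.
Cenpa, chr5:30666686-30666915, plus strand: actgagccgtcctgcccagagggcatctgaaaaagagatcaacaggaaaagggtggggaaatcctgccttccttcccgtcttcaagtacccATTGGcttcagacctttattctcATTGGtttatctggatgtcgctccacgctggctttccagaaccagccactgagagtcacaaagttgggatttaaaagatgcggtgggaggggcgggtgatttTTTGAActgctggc
Cdc20, chr4:118437314-118437543, minus strand: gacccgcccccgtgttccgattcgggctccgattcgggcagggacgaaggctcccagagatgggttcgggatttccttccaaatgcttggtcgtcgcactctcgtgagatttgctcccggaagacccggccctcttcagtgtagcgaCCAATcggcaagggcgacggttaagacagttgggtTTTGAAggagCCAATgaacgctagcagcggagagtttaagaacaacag
Kif11, chr19:37376182-37376411, plus strand: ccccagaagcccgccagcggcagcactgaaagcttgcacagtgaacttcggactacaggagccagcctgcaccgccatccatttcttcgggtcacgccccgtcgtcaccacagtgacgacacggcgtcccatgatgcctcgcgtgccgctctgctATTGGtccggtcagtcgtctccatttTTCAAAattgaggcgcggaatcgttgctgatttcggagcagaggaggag

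All of these held CCAAT, 2 copies in Cenpa and in Cdc20 and 1 in Kif11, and 1 copy of TTTGAA each. In Kif11 it is on the other strand.

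The other genes of the cell cycle were described from fixed lists. Of 26 further replication and G1/S genes, 23 had a ratio interval above 0 in the contractile-low barcodes, against 24.1% of the 10003 genes with at least 20 UMIs, and 22 were at least 2-fold higher. E2f1 had 1 QSC and 201 ASC UMIs (log2 ratio 5.01, 2.51 to 10.3), and Tk1, thymidine kinase, 1 and 457 UMIs (6.19, 3.71 to 11.5). Prim2, Pole and Rpa3 had intervals that spanned 0. Of 25 further G2/M genes, 24 had an interval above 0 and were at least 2-fold higher. Ccna2, cyclin A, was at 0 QSC and 430 ASC UMIs, 22.9-fold higher with the QSC count set to 3 UMIs (lower limit of the log2 ratio 4.215). The exception was Pttg1, securin, the inhibitor of separase: it went from 76 UMIs (90.4 CPM) to 235 UMIs (44.7 CPM), a log2 ratio of -1.02 (-1.39 to -0.62).

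The brakes of the cycle went mostly the other way. Of 9 genes, 6 had an interval below 0, against 27.8% of all genes with at least 20 UMIs, and 2 above it. Btg2, an antiproliferative gene, went from 1441 to 206 CPM (-2.81, -2.93 to -2.69), Cdkn1b, p27, from 79.7 to 13.9 (-2.52, -3.02 to -2.02), and Cdkn1a, p21, from 620 to 254 (-1.29, -1.44 to -1.14). Cdkn1c, p57, went in the opposite direction, from 91.6 to 1131 CPM (3.63, 3.30 to 3.97). Among the G1 cyclins and kinases, Ccnd1 went from 78.5 to 267 CPM (1.77, 1.41 to 2.15), Cdk4 from 147 to 421 (1.51, 1.25 to 1.78) and Cdk6 from 15.5 to 96.9 (2.65, 1.86 to 3.57). Ccnd3 was at 201 CPM in the QSC and 200.4 in the ASC barcodes (0.00, -0.24 to 0.24).

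To place the members cell by cell, each barcode was thinned to 2000 UMIs, and shallower ones were left out (23 of 419 ASC and 134 of 370 QSC contractile-low barcodes). A barcode with at least 3 S members detected was put in S, and one with at least 3 G2/M members in G2/M. Of the 396 ASC barcodes, 67 (16.9%, 13.4 to 21.0) were S only, 59 (14.9%, 11.5 to 18.8) were S with G2/M (S+G2/M in the plots), 20 (5.05%, 3.11 to 7.69) were G2/M only, and 250 (63.1%, 58.2 to 67.9) were neither. The 146 barcodes with a phase made up 36.9% (32.1 to 41.8). The same share was 4.24% (10 of 236, 2.05 to 7.65) in the QSC contractile-low barcodes, 1.73% (11 of 635, 0.87 to 3.08) in the ASC contractile barcodes and 5.33% (4 of 75, 1.47 to 13.1) in the ASC immune barcodes.

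These classes are ranges of a count and not cell types. Exactly 2 or 3 S members were found in 79 of the 396 barcodes and exactly 2 or 3 G2/M members in 64, while 85 held no member of either group. The share with a phase moved with the depth kept and the number of members asked for, from 28.6% at 1200 UMIs to 61.3% at 5000 UMIs. Barcodes with a phase were also deeper as sequenced, with a median of 18820 UMIs in S only, 26977 in S with G2/M and 19369.5 in G2/M only, against 5651 in neither. The part of depth in the phase shares was not tested beyond thinning and the settings named.

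Among the QSC barcodes, 9 were S only and each held exactly 3 S members, at depths from 2143 to 2926 UMIs. The other one was in S with G2/M, with 7 S and 4 G2/M members after thinning, Mcm6, Mcm7, Pcna, Rrm1, Rrm2, Uhrf1, Hells, Birc5, Tpx2, Kif11 and Ttk. It carried 3 UMIs of Myod1, 0 of Pax7, 0 of Myf5 and 0.93% mitochondrial UMIs. It was the only QSC contractile-low barcode under 1% mitochondrial UMIs.

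**Figure D2:**
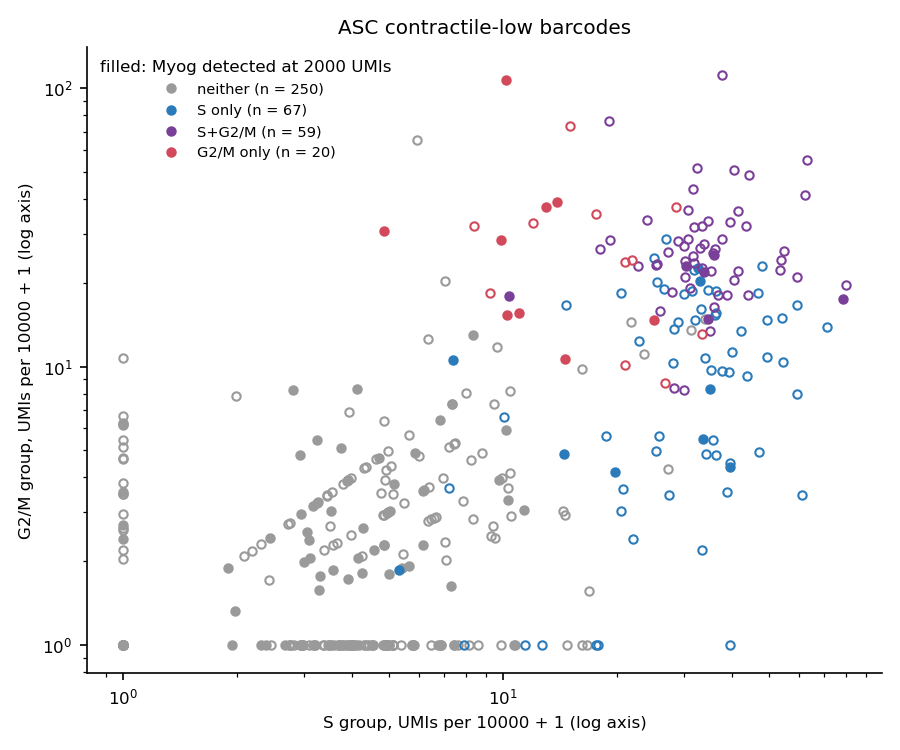
Each point is 1 of 396 ASC contractile-low barcodes, placed by its UMIs of the S group (horizontal) and of the G2/M group (vertical) per 10000 UMIs plus 1, on log axes, and coloured by phase class; filled points had Myog detected at 2000 UMIs. Barcodes with a phase sit at the upper right, and filled points are common among the grey (neither) and red (G2/M only) points.

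The S and G2/M members were detected in the same barcodes to a large degree. Across the 396 barcodes the number of S members and the number of G2/M members had a Spearman correlation of 0.547, a description over cells of 1 library that were thinned to the same depth. The transcripts removed by thinning, which were not used to set the classes but came from the same barcodes, gave the levels of each member in each class. The S group was at 581 CPM (543 to 621) in neither, 3195 (3095 to 3297) in S only, 3492 (3393 to 3592) in S with G2/M and 1897 (1754 to 2048) in G2/M only. The G2/M group was at 270 (245 to 298), 1217 (1156 to 1281), 2588 (2504 to 2675) and 2438 (2275 to 2608). Each class called for 1 group therefore still held transcripts of the other, and S only barcodes had over 4 times the G2/M level of neither.

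The members differed in the class where they were highest. The classes were set by detection of these same genes in the same barcodes, so the directions between classes are largely fixed by the rule and are given as a description. All 25 S members were highest in S only (9 members) or in S with G2/M (16 members), and 18 of them were lower in G2/M only than in S with G2/M, with a ratio interval below 0, against 7.12% of 6344 genes. The intervals of Mcm4, Mcm5, Cdc45, Uhrf1, Rfc2, Pola1 and Ung spanned 0. Of the G2/M members, 22 of 24 were higher in S with G2/M than in S only by the same criterion, against 7.82% of 7342 genes. Cdc6, the loader of the MCM helicase, stood at 33.0 CPM in S only, 34.2 in S with G2/M and 5.82 (2 UMIs) in G2/M only. Ccne2, cyclin E2, stood at 48.7, 33.5 and 11.6. Ung, which removes uracil from DNA, stood at 80.1, 34.2 and 26.2. It alone of the 25 S members was lower in S with G2/M than in S only with an interval below 0. That share is near the 4.55% of the same 7342 genes, so the count does not set the group apart from other genes. Rrm2 instead was at 380 in S only, 537 in S with G2/M and 198 in G2/M only.

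Within the G2/M group, 10 members were highest in G2/M only and 14 in S with G2/M. Ccnb2 stood at 61.1 CPM in S only, 108 in S with G2/M and 189 in G2/M only, and Cenpa at 138, 233 and 355. These 2 of the 24 members were higher in G2/M only than in S with G2/M beyond counting error. That share is near the 7.2% of 6344 genes, so the count does not set the group apart from other genes. In the opposite direction, 6 of the 24 members were lower, namely Mki67, Top2a, Cdk1, Ube2c, Aurka and Aurkb, against 7.12% of 6344 genes. Top2a stood at 73.5 in S only, 167 in S with G2/M and 78.5 in G2/M only, and Cdk1 at 66.1, 171 and 87.3. Cenpe, Cenpf, Kif23, Tpx2, Tacc3, Cdc20, Hmmr and Ttk also had their highest value in G2/M only, with intervals of the ratio that spanned 0. Slbp, whose interval between the libraries spanned 0, was at 48.1 CPM in neither, 150 in S only, 145 in S with G2/M and 81.5 in G2/M only.

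**Figure D3:**
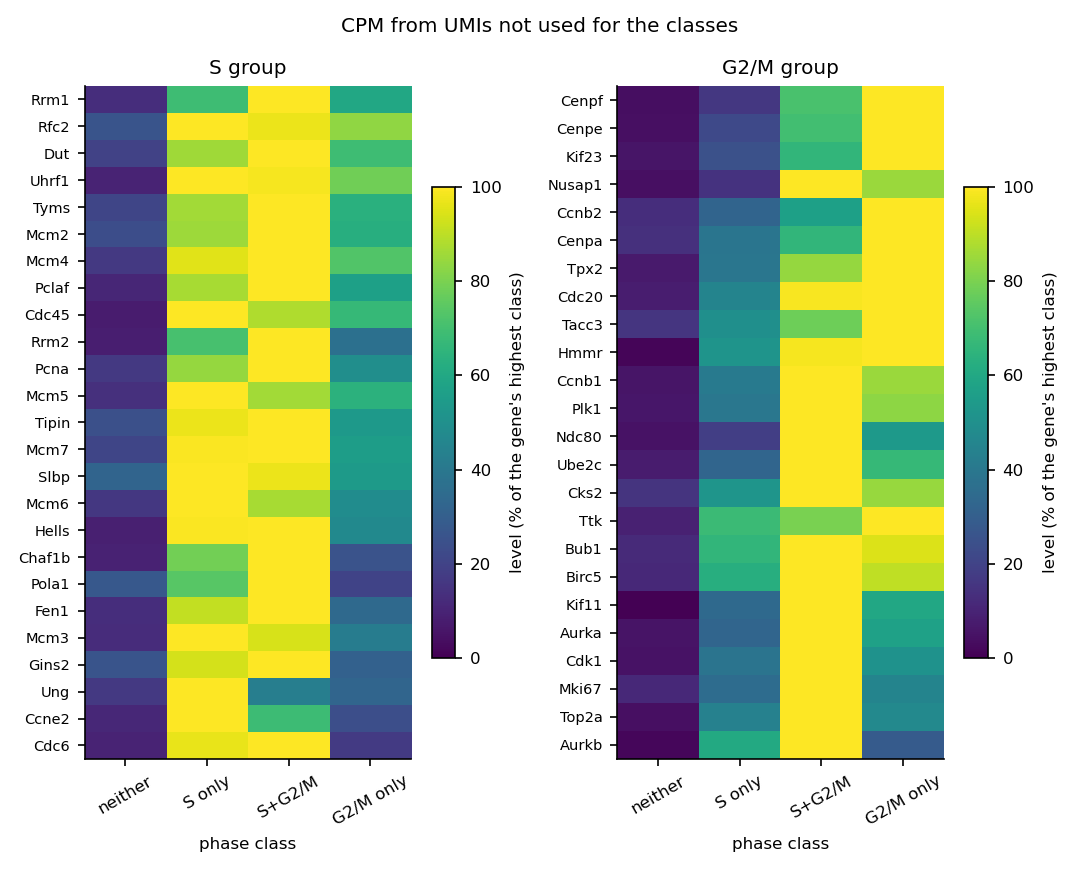
CPM of each S gene (left) and G2/M gene (right) in the 4 phase classes of ASC contractile-low barcodes, as percent of the class where that gene was highest, from UMIs not used to set the classes. S genes are dimmest in neither and fade again in G2/M only, with Cdc6, Ccne2 and Ung at the bottom, while Cenpf, Cenpe, Kif23, Ccnb2 and Cenpa are brightest in G2/M only.

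At an equal depth of 2000 UMIs Myog was less frequent in the S classes than in neither and in G2/M only. It was detected in 31.6% of neither barcodes (79 of 250, 25.9 to 37.8), 13.4% of S only (9 of 67, 6.33 to 24.0), 10.2% of S with G2/M (6 of 59, 3.82 to 20.8) and 45% of G2/M only (9 of 20, 23.1 to 68.5). The intervals of S with G2/M and of G2/M only do not overlap, whereas those of S only and of G2/M only do. With S only and S with G2/M as 1 set, the contrast with G2/M only depended on the setting. The intervals overlapped with a second thinning (9.97 to 22.95 against 16.3 to 67.7) and at 1200 UMIs (1.79 to 12.2 against 8.97 to 43.7), among others. They did not with at least 2 members (10.4 to 21.4 against 21.5 to 69.2). Without thinning, which lets deeper barcodes show more genes, the order turned: Myog was detected in 34.1% of neither (57 of 167, 27.0 to 41.9), in 60.7% of S only and S with G2/M as 1 set (150 of 247, 54.3 to 66.9) and in 60% of G2/M only (3 of 5). In ASC immune barcodes, which should not express Myog, it was found in 5.33% (4 of 75, 1.47 to 13.1), with a median of 6533 UMIs before thinning against 9104.5 in the contractile-low ones, so the S only and S with G2/M shares are not clear of the background of free RNA. The summed levels with all UMIs were 1981 CPM (1920 to 2044) in neither, 158 (138 to 181) in S only, 151 (132 to 172) in S with G2/M and 1415 (1298 to 1539) in G2/M only. The G2/M only sum rests on few barcodes, which its interval does not cover. At 2000 UMIs that class held 61 Myog UMIs in 9 of its 20 barcodes, and the barcodes of 20671 and 22513 UMIs held 17 each.

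Seen from the side of Myog, 41.6% of barcodes without it had a phase (122 of 293), 33.3% of those with 1 to 3 UMIs (15 of 45) and 15.5% of those with 4 or more (9 of 58). Of these 9, 5 were G2/M only, 3 were S with G2/M and 1 was S only. In the immune barcodes none had 4 or more, and in the ASC contractile barcodes 10 of 635 did. The G2/M group, from thinned UMIs, was at 915 CPM (839 to 996) without Myog and at 750 (601 to 925) with 4 or more, whereas the S group went from 1635 (1533 to 1742) to 638 (501 to 801). The G2/M level with 4 or more is a sum of 87 UMIs over 58 barcodes, of which 49 had no phase. In the barcode of 14171 UMIs alone 13 G2/M members were detected, so this level does not describe most of these barcodes.

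The 5 G2/M only barcodes with 4 or more Myog UMIs had depths from 11265 to 27975 UMIs. Their class was set at 2000 UMIs. At full depth all of them held S transcripts, from 8.88 to 13.5 UMIs of the S group per 10000. The barcode of 20671 UMIs, with 17 UMIs of Myog, held more of the S group (13.5 per 10000) than of the G2/M group (9.68), and the others held less. In the first of 2 that held the most G2/M members, 13 of them were detected at 2000 UMIs, including Top2a, Cdk1, Ccnb1, Ccnb2, Cdc20, Aurkb and Plk1, with no S member, 7 UMIs of Myog and 3 of Cdkn1c. In the other, 10 were detected, including Mki67, Ccnb2, Cdc20, Kif23 and Plk1, with Dut as the only S member, 17 UMIs of Myog and 23 of Cdkn1c. No doublets were removed, and a droplet with a dividing and a differentiating cell cannot be told apart from 1 cell with both sets of transcripts.

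Barcodes were also ordered without classes. Among barcodes with at least 20 member UMIs at full depth, Myog was detected at 2000 UMIs in 12.2% (5 of 41) where under 25% of the member UMIs were G2/M, in 13.2% (10 of 76) from 25 to 50%, in 27.3% (6 of 22) from 50 to 75% and in 44.4% (4 of 9, 13.7 to 78.8) from 75% on. The last bin held few barcodes, and the intervals of all bins overlap, the first (4.08 to 26.2) and the last included. Among barcodes of at least 10000 UMIs Myog was found in 57.8% of neither, 11.5% of S only or S with G2/M, and 43.8% of G2/M only.

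Pax7, the transcription factor that marks satellite cells, was seldom seen beside a phase. It was detected in 14% of neither (35 of 250, 9.95 to 18.9), 5.97% of S only (4 of 67), 6.78% of S with G2/M (4 of 59) and 5% of G2/M only (1 of 20), in each of the last 3 classes with 1 UMI at most. At 2000 UMIs all intervals overlap. With all UMIs Pax7 was at 46.6 CPM (37.6 to 57.0) in neither, 17.9 (11.4 to 26.6) in S only, 17.4 (11.4 to 25.5) in S with G2/M and 20.9 (8 UMIs) in G2/M only, so that S only and S with G2/M lay below neither beyond counting error. Of the 44 barcodes with Pax7, 20.5% had a phase, and of the 352 without it 38.9%. The 9 barcodes with Pax7 and a phase all had 0 Myog UMIs, and the 3 barcodes with both Pax7 and Myog were all in neither. Pax7 was absent from 75 immune barcodes (upper limit 4.80%). The lower share was not seen among deep barcodes: among those of at least 10000 UMIs Pax7 was in 4.69% of neither and 5.83% of those with a phase, and with another random thinning the share with a phase went from 6.16% to 2.01% (0.417 to 5.77), against 11.7% (8.01 to 16.4) in neither. In the QSC contractile-low barcodes Pax7 was detected in 32.2% (76 of 236).

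Myod1, which marks the activated and dividing myoblast, was spread over all classes, at 40.4% in neither (101 of 250), 55.2% in S only (37 of 67), 59.3% in S with G2/M (35 of 59) and 50% in G2/M only (10 of 20). Barcodes with Myod1 and neither Pax7 nor Myog had a phase in 52.3% (57 of 109). Myf5, another early myogenic factor, was in 19.2% of neither (48 of 250) 8.96% of S only (6 of 67), 0 of 59 barcodes of S with G2/M (upper limit 6.06%, for barcodes with a UMI at this depth) and 5% of G2/M only (1 of 20). With all UMIs it was found in every class, at 99.6 CPM (86.3 to 115), 51.3 (39.9 to 64.9), 31.5 (47 UMIs, 23.1 to 41.9) and 54.7 (33.9 to 83.6) in the same order.

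**Figure D4:**
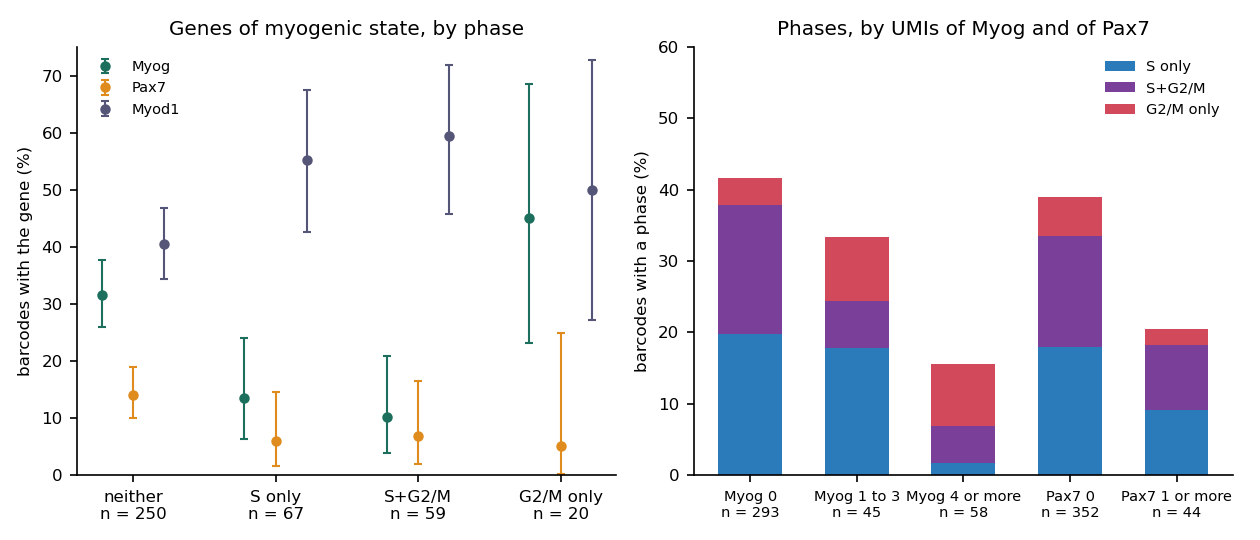
Left, percent of ASC contractile-low barcodes with Myog, Pax7 or Myod1 at 2000 UMIs in each phase class, with exact 95% intervals; right, percent of barcodes in each phase (stacked bars) by the number of Myog or Pax7 UMIs. Myog is lower in S only and S+G2/M than in neither and highest in G2/M only, where its interval overlaps that of neither, and the blue and purple parts shrink with 4 or more Myog UMIs while the red part does not.

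Cdkn1c, the p57 brake, was likewise lowest in the S classes. With all UMIs it stood at 2680 CPM (2609 to 2753) in neither, 32.0 (23.1 to 43.1) in S only, 107 (91.2 to 125) in S with G2/M and 993 (896 to 1098) in G2/M only. At 2000 UMIs it was detected in 27.6% of neither (69 of 250), 8.96% of S only (6 of 67), 6.78% of S with G2/M (4 of 59) and 25% of G2/M only (5 of 20). The sums of the last 2 classes thus rest on few barcodes. At that depth 1 barcode held 23 of the 53 UMIs in G2/M only, and 1 held 13 of the 25 in S with G2/M. Of the 41 barcodes with at least 4 UMIs of both Cdkn1c and Myog, 36 were neither, 3 G2/M only, 2 S with G2/M and 0 S only (upper limit 8.60%). Btg2 was at 472, 45.4, 31.5 and 75.6 CPM in the same order, and Cdkn1a at 360, 152, 182 and 326. At 2000 UMIs Cdkn1a stood at 354 CPM (304 to 410.2) in neither, 149 (91.2 to 231) in S only, 178 (110.2 to 272) in S with G2/M and 175 (70.4 to 361, 7 UMIs) in G2/M only. This last interval overlaps that of G2/M only with all UMIs (271 to 388), so its level there is not settled. At 2000 UMIs, 4 of the 5 brakes with at least 20 UMIs (Cdkn1a, Cdkn1c, Cdkn2c and Btg2) were at least 2-fold lower in S only than in neither, against 13.2% of 3507 genes, and 2 of 5 (Cdkn1c and Btg2) in S with G2/M and G2/M only as 1 set, against 14.7% of 3648 genes.

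Ccnd1, cyclin D1, was at 130 CPM in neither, 375 in S only, 383 in S with G2/M and 159 in G2/M only. Cdk6 showed a like order (31.0, 132, 158 and 78.2), and Cdk4 stayed high in G2/M only (271, 523, 520.3 and 469). Ccna2 was at 8.51, 76.6, 166 and 159 CPM. Cdt1, the licensing factor, was at 69.9 in S only, 94.4 in S with G2/M and 26.1 in G2/M only. Pttg1, lower in the ASC library, was also flat across the classes, at 47.1, 43.9, 41.5 and 46.9 CPM.

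**Figure D5:**
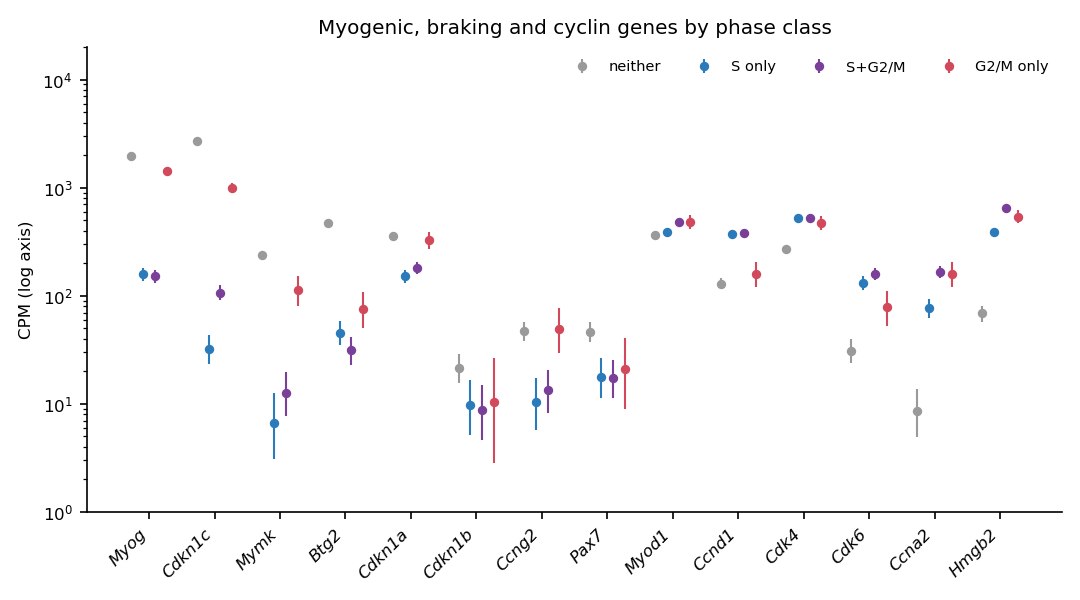
CPM (log axis, all UMIs of the barcodes) of myogenic, braking and cyclin genes in the 4 phase classes, with exact Poisson 95% intervals. For Myog, Cdkn1c and Mymk the red points (G2/M only) lie below the grey ones (neither) and above the blue and purple ones, while Ccnd1 and Cdk6 show the reverse order. In the thinned barcodes Mymk was detected in only 1 of 20 G2/M only barcodes, so its red point may rest on few barcodes.

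Counted over the fixed lists, the G2/M partners were higher in the phases. Of 8 with at least 20 UMIs in the thinned barcodes, 7 were at least 2-fold higher in S only than in neither, against 13% of 3507 genes, and of 12 with that depth 11 were so in S with G2/M and G2/M only as 1 set, against 14.9% of 3648 genes. Pttg1 was the exception in both. Of the S partners, 3 of 3 and 7 of 8 were higher. Most partners were too shallow at 2000 UMIs to be counted.

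The genes most like the members were sought among 3963 other genes seen in at least 5% of the 396 barcodes. With the number of S members, the highest Spearman correlations were those of Lgals1 (0.567), Tuba1b (0.558), H2afz (0.553), Ptma (0.50) and Ran (0.487). With the number of G2/M members they were H2afz (0.666), Hmgb1 (0.544), Lgals1 (0.535), Stmn1 (0.513) and Cks1b (0.505). The lowest were Malat1 (-0.447 and -0.476) and Jund (-0.433 and -0.456). H2afz, a replacement histone, was in 55.2% of neither barcodes and in all 20 G2/M only barcodes at 2000 UMIs. These values describe cells of 1 library at 1 depth.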

How the data were processed

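The 2 droplet libraries (3' single-cell RNA-seq), 1 of QSC and 1 of ASC, were analysed. The deposited files hold UMI counts per gene and barcode, made by the authors with Cell Ranger (6.0.2 per the file headers, 7.1.0 in the submitters' processing notes, which also list Seurat 4.1.0, R 4.1.2 and the mm10 genome). Strand handling is not given in the sources used here. Each library was a pool of several mice.

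Barcodes were kept with at least 500 genes and at most 10% mitochondrial UMIs, because the limit of 1% in the study's methods left 1 QSC contractile-low barcode. Counts were summed and expressed as CPM, UMIs per 1000000 UMIs, with exact Poisson 95% intervals, ratios with exact conditional binomial intervals, and shares with Clopper-Pearson intervals. They cover counting error only, and no p-value was computed. Counts under 3 were set to 3 (2.58 CPM in the QSC library over all kept barcodes) for folds of genes at 0, medians and 2-fold counts. Genes called higher were at least 2-fold higher among those with at least 20 UMIs. Barcodes were classed by 10 contractile, 15 immune and 9 stromal genes, and thinned to 2000 UMIs without replacement (seed 1). No doublets were removed. The members and lists were chosen with earlier results of these data known. Named genes were the 6 members with the most UMIs in each group, members at 0 in a library, Myog, Pax7, Myod1, the polyamine genes, related cell-cycle genes, and the 5 genes most like each group. Other members and other genes beyond this rule were chosen after their values were seen. The steps were tested on simulated data with known folds and phases. Coordinates and overlaps are from GENCODE M21 (GRCm38) and promoters from RefSeq. Python 3.11.15, numpy 2.4.6, scipy 1.17.1 and pandas 2.3.3 were used.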

Additional observations from a re-analysis of the deposited data

Results flagged for a closer look

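Barcodes left out by the filters also carried member transcripts. In the ASC library 182 barcodes were left out, and the S group stood there at 909 CPM, UMIs per 1000000 UMIs (769 to 1067), and the G2/M group at 622 CPM (507 to 755). The left-out QSC barcodes, 250 in number, stood at 136 (88.0 to 201) and 32.6 (12.0 to 71.0). They were marked because the signal lay in data outside the comparisons and above that of the QSC library. Of the ASC barcodes, 19 had at least 500 genes and were left out for their mitochondrial share alone, and these stood at 1970 (1582 to 2425) and 1572 (1228 to 1983) CPM, levels in the range of the kept contractile-low barcodes. The part of damaged cells and of free RNA in these values was not tested.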

How the results depend on the processing

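With 1 library per group no replicate could be left out. No paired analysis was possible because each group had 1 library and no test was made. The 1% mitochondrial limit moved the log2 ratio of the S group to 1.51 over all kept barcodes and to -0.30 in the contractile-low ones, and that of the G2/M group to 1.66 and -0.73, with 1 QSC barcode left in the latter. Relative to the median gene, the S group ratios were 2.14 and 2.55. The other alternatives left the ratios within their intervals. The share of ASC contractile-low barcodes with a phase was 28.6% at 1200 UMIs, 61.3% at 5000 UMIs and 60.1% without thinning, 50.8% with at least 2 and 31.3% with at least 4 members, 65.2% in barcodes of at least 10000 UMIs and 21% in those of at most 20000 UMIs. The last 2 settings, and leaving out the QSC barcode with the most member UMIs, were chosen after seeing the data. Myog in neither was 55% at 5000 UMIs and 57.8% in barcodes of at least 10000 UMIs, and in S only or S with G2/M 5.43% at 1200 UMIs, 32% at 5000 UMIs and 60.7% without thinning, above the 34.1% of neither in that setting. Its share in G2/M only ran from 23.1% to 60% over all settings, on 5 to 26 barcodes, and stood at 60% on 5 barcodes without thinning. Pax7 in neither was 7.8% at 1200 UMIs, 19.8% at 5000 UMIs, 26.9% without thinning and 4.69% from 10000 UMIs, and with any phase 21.8% without thinning and 2.01% with a second thinning. The cause of these moves was not tested beyond the depth that each setting keeps. The protein features in the plan were not run.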

Other observations

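A few further muscle genes, chosen after their values were seen, were set beside Myog. With all UMIs of the ASC contractile-low barcodes, Mymk, the membrane activator of myoblast fusion, stood at 237 CPM (216 to 260) in barcodes of neither phase, 6.69 (3.06 to 12.7) in S only, 12.7 (7.66 to 19.9) in S with G2/M and 112 (81.1 to 151) in G2/M only. Actc1, the cardiac actin of embryonic and regenerating muscle, stood at 531 (499 to 564), 16.4 (10.3 to 24.8), 38.8 (29.5 to 50.2) and 143 (108 to 187). Chrna1, a subunit of the acetylcholine receptor, showed little of this, at 240 (219 to 263), 210 (186 to 236), 272 (247 to 300.4) and 323 (269 to 385). Des, desmin, was at 1427 in neither and between 1106 and 1154 in the other classes. In the thinned barcodes Mymk was detected in 31 of 250 barcodes of neither and in 0 of 67 of S only. It was detected in 1 of 59 of S with G2/M and in 1 of 20 of G2/M only (2 UMIs). The intervals of the shares in S only (0 to 5.36%) and in G2/M only (0.13 to 24.9%) overlap. The G2/M only sum of Mymk may thus rest on few barcodes, which its interval does not cover.

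The polyamine enzymes Srm, Odc1 and Sms and the translation factor Eif5a were read the same way. Srm, spermidine synthase, was at 132 CPM (116 to 149) in neither, 376 (344 to 411) in S only, 392 (361 to 425) in S with G2/M and 195 (154 to 245) in G2/M only. Odc1, ornithine decarboxylase, was at 243 (222 to 266), 365 (334 to 399), 327 (298 to 357) and 253 (205 to 308). Sms, spermine synthase, was at 111 (97.0 to 127), 161 (140 to 184), 155 (135 to 176) and 102 (72.3 to 139). Eif5a, which carries hypusine, was at 1281 (1231 to 1331), 2570 (2485 to 2658), 2569 (2489 to 2652) and 2077 (1935 to 2226). At 2000 UMIs Odc1 was at 198 (161 to 241), 321 (232 to 432), 254 (172 to 363) and 325 (173 to 556), with the intervals of neither and of each phase overlapping, and Srm at 110 (82.9 to 143), 284 (201 to 389), 398 (293 to 530) and 175 (70.4 to 361). These classes also differ in depth, and its part in these values was not tested.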
